A study of Mus musculus with 6 samples.

Results

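Small nucleolar RNA (snoRNA) genes were followed through 6 RNA-sequencing libraries of basal cells from the mouse esophagus. They were taken as every gene of the deposited expression table whose symbol begins with Snora or Snord followed by a digit, which gave 105 of 24016 genes, 36 of the box H/ACA class (Snora) and 69 of the box C/D class (Snord). The set was selected on its FPKM values in these libraries: 2 of its genes, Snora70 and Snora33, had higher values in all 3 Krt15+ libraries than in the Krt15- ones. Differences of snoRNA genes between these groups are therefore given as a description, without a test.

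The study compared Krt15+ basal cells (CD29high GFP+, 3 libraries) with Krt15- basal cells (CD29high GFP-, 3 libraries). All mice were Krt15-CrePR1;R26mTomato/mGFP, in which the Krt15 promoter drives a Cre recombinase that RU486 switches on and recombination turns a membrane Tomato reporter into membrane GFP. All received 1 mg of RU486 24 h before cell sorting, so the Krt15- cells carried the same transgenes and the same drug. CD29 (integrin beta-1) was the marker of basal cells, and the group names refer to GFP, not to the level of Krt15. Within a replicate number, the Krt15+ and the Krt15- library carry the same sample code in the labels, which do not say whether it stands for an animal, a pool or a day. The labels give neither the age of the mice nor whether each number is a separate animal, so p-values measure only how far these libraries scatter, which may partly be technical.

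snoRNAs are short RNAs of the nucleolus that guide chemical modification of ribosomal RNA by base pairing. Box C/D snoRNAs guide 2'-O-methylation with the methyltransferase fibrillarin, and box H/ACA snoRNAs guide pseudouridylation with the pseudouridine synthase dyskerin. In mammals most lie in introns of host genes, many of which encode ribosomal proteins or translation factors, and are trimmed out of the spliced intron. Mature snoRNAs carry no poly(A) tail. The libraries were made with a SMART-Seq v4 kit directly from cells, a chemistry that starts from poly(A) and does not mark strand, so reads of a snoRNA, of unspliced or intron-retaining host RNA and of antisense RNA cannot be told apart. All levels are in FPKM, fragments per kilobase of transcript and M mapped fragments (M, mega), as the authors deposited them.

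The sequences below, from GENCODE M21 transcripts on GRCm38, show the snoRNAs on which the results turn: the pair behind the choice of the set, one box H/ACA snoRNA with a value in every library, and 2 box C/D snoRNAs that lie in the same host genes but were listed at 0 everywhere. Capitals mark the ANA box 3 bases from the 3' end of box H/ACA snoRNAs, and the C box (TGATG in the first 20 bases) and D box (CTGA in the last 20 bases) of box C/D snoRNAs, searched on the transcript strand only. Snora70 and Snora81 are on the plus strand, as is Snord2, and Snora33 and Snord100 are on the minus strand.
Snora70: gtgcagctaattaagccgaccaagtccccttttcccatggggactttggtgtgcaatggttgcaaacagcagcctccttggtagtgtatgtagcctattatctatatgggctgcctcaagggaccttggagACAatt
Snora33: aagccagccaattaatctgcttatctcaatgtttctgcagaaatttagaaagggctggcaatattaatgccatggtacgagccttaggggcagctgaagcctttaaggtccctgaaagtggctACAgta
Snord100: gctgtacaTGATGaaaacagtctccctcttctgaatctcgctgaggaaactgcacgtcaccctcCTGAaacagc
Snora81: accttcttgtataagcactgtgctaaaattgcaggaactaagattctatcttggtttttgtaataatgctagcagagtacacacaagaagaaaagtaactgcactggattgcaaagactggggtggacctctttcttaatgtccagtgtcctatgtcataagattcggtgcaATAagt
Snord2: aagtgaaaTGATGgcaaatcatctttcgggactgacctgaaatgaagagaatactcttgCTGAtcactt
Snora70 (chrX:74272484-74272620, 137 nt) lies within the ribosomal protein gene Rpl10, and Snora33 (chr10:23785347-23785475, 129 nt) within the ribosomal protein gene Rps12, which also holds Snord100 (chr10:23785750-23785823, 74 nt). Snora81 (chr16:23110756-23110933, 178 nt) and Snord2 (chr16:23108953-23109021, 69 nt) lie within Eif4a2, which encodes an RNA helicase of translation initiation. Among the snoRNA genes with a matching transcript, the ANA box was found in 32 of 36 box H/ACA (88.9%) and 5 of 68 box C/D (7.35%), and both C and D boxes in 0 of 36 box H/ACA and 56 of 68 box C/D (82.4%). Among all 1507 GENCODE snoRNA transcripts, 356 (23.6%) held the ANA box and 355 (23.6%) both C and D boxes. By sequence (at least 90% identity over at least 90% of the length), Snora70 had 2 further annotated snoRNA genes and Snora33 had 1, none with a gene of its own in the table, so reads of these copies could not be separated.

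The libraries differed in how much they captured. Estimated depth was 27.5 to 34.2 M fragments in Krt15+ libraries and 29.1 to 41.7 M in Krt15- libraries, while 7072 to 9194 genes reached 1 FPKM in Krt15+ libraries and 3247 to 7934 in Krt15- libraries. Krt15- replicate 1 stood apart, with 3247 such genes and correlations of 0.48 to 0.53 with the other libraries, and it had 6411 genes above 0, against 8905 to 11499 in the others. Every library held the basal keratin genes (9 of 9 basal and suprabasal keratinocyte markers at 1 FPKM or more in each Krt15+ library, 8 or 9 in Krt15- libraries), and Krt15 itself did not pass the test (difference 0.18 on the log2(FPKM + 1) scale, SE 0.48, limma adjusted p = 0.93). Fibroblast markers moved with the groups: 1 or 2 of 9 reached 1 FPKM in Krt15+ libraries (sum 71.3 to 179 FPKM). In Krt15- libraries 7 to 9 of 9 did (sum 176 to 788 FPKM). Col1a2, Pdgfra and Lum were at 0 in all Krt15+ libraries. In Krt15- libraries Col1a2 had 0.581, 7.93 and 15.9 FPKM, Pdgfra 0, 0 and 1.57 FPKM and Lum 2.55, 0 and 63.8 FPKM. Immune markers were mixed. Of 7 tested, 5 had a difference below 0 and 2, Lyz2 and H2-Ab1, above 0, and 1 did not overlap. Lyz2 reached 7279 FPKM in Krt15+ replicate 1. Without it the markers summed to 36.8, 92.9 and 118 FPKM in Krt15+ libraries and 267, 771 and 631 FPKM in Krt15- libraries, which do not overlap. Single genes made up much of the Krt15- sums, such as Tyrobp at 203 FPKM in replicate 1 and Nkg7 at 459 FPKM in replicate 2. With Lyz2 the sums ran from 146 to 7316 FPKM in Krt15+ libraries and from 606 to 938 FPKM in Krt15- libraries. Of the 9 markers, 2 to 6 reached 1 FPKM in Krt15+ libraries and 3 to 6 in Krt15- libraries. Cd3e was at 0 in all Krt15+ libraries and at 0, 0 and 0.720 FPKM in Krt15- libraries. Lyz2 was set aside after its values were seen. Endothelial markers summed to 0 FPKM in every Krt15+ library and 0 to 4.05 FPKM in Krt15- libraries. Their part in the snoRNA values was not tested, and in sorted bulk cells fewer cells of a type and less RNA per cell cannot be told apart.

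Most snoRNA genes had no signal. Of the 105, 82 were listed at 0 in all 6 libraries and 23 (21.9%) were above 0 in at least 1 library, against 14385 of all 24016 genes (59.9%). Snora24 and Snora26 were above 0 by less than 0.001 FPKM only, far below the worth of a single fragment, which left 21 snoRNA genes with 1 FPKM or more somewhere. An exact 0 in a table without counts can be a failed estimate, so it is written here as listed at 0.

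Signal was concentrated in the box H/ACA class. Of the 36 box H/ACA genes, 20 (55.6%) were above 0 in at least 1 library, against 3 of the 69 box C/D genes (4.35%), namely Snord22, Snord55 and Snord17. The classes differ in size: annotated lengths ran from 121 to 196 nt (median 132) for box H/ACA and from 64 to 238 nt (median 79.5) for box C/D. Below 80 nt, 1 of 34 snoRNA genes was above 0, and from 80 to under 120 nt 0 of 30, all of them box C/D. From 120 to under 140 nt it was 17 of 32, made up of 16 of 31 box H/ACA genes and the only box C/D gene of that length (Snord22), and from 140 to under 240 nt 5 of 8 (4 of 5 box H/ACA and 1 of 3 box C/D). Within box H/ACA, the genes above 0 had a median length of 131 nt (121 to 196). Those listed at 0 had one of 132.5 nt (128 to 149). Snora24 (130 nt) and Snora26 (121 nt) count among those above 0 here and in the range from 120 to under 140 nt. Since few box C/D genes are as long as box H/ACA genes, class and length cannot be told apart.

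**Figure D1:**
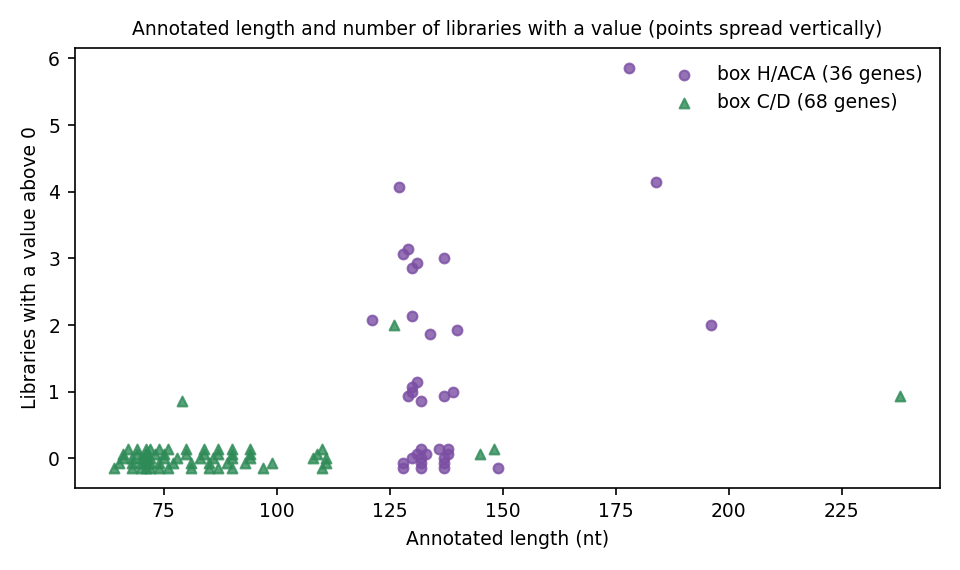
Annotated length (nt, x axis) of the snoRNA genes and the number of libraries, of 6, in which each was above 0 (y axis, points spread slightly around each whole number so that they do not cover each other). Box H/ACA genes (circles, 36) lie at 121 nt and above and 20 of them leave the 0 line, while of the 68 box C/D genes with a known length (triangles) 3 do.

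Other short genes had little signal too. Among further genes with a single annotated transcript, 0 of 509 below 80 nt were above 0 in any library, 24 of 484 from 80 to under 120 nt, 7 of 60 from 120 to under 140 nt and 7 of 14 from 140 to under 240 nt. Of the microRNA genes (Mir symbols), 32 of 1062 were above 0, and of the genes for small Cajal body RNAs (Scarna), which guide modification of spliceosomal RNAs, 0 of 9. The telomerase RNA Terc, itself a box H/ACA RNA, and Rmrp, the RNA of an endonuclease that takes part in ribosomal RNA processing, were at 0 in all 6 libraries. Rnu11, an RNA of the minor spliceosome, had 20.8, 17.4 and 0 FPKM in Krt15+ libraries and 0, 0 and 10.8 FPKM in Krt15- libraries. Rpph1, the RNA of ribonuclease P, was at 5.02, 0 and 0 FPKM in Krt15+ libraries and 0, 0 and 0.129 FPKM in Krt15- libraries. The vault RNA Vaultrc5 had 5.21, 2.86 and 2.6 FPKM in Krt15+ libraries and 0, 1.48 and 2.79 FPKM in Krt15- libraries, overlapping ranges.

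The snoRNA genes above 0, Snora24 and Snora26 included, were mostly seen in a few libraries each. Of the 23 above 0, 9 were above 0 in exactly 1 library, 6 in 2, 5 in 3, 2 in 4, 0 in 5 and 1, Snora81, in all 6. Krt15+ libraries had 7, 12 and 10 snoRNA genes at 1 FPKM or more (9.67 ± 2.52, SD, n = 3), and Krt15- libraries had 4, 8 and 5 (5.67 ± 2.08, SD, n = 3), with overlapping ranges. Per 1000 genes at 1 FPKM or more, these numbers of snoRNA genes were 0.827, 1.31 and 1.41 in Krt15+ libraries and 1.23, 1.16 and 0.630 in Krt15- libraries. Box H/ACA genes alone numbered 7, 11 and 9 in Krt15+ libraries and 4, 6 and 5 in Krt15- libraries. Snora70 and Snora33, on which the set was selected, put 2 into every Krt15+ count and 0 into every Krt15- count, and without them the numbers were 5, 9 and 7 in Krt15+ libraries and 4, 6 and 5 in Krt15- libraries, which overlap. The summed snoRNA level was 107, 83.4 and 406 FPKM in Krt15+ libraries and 73.3, 212 and 48.0 FPKM in Krt15- libraries, also overlapping. The snoRNA with the highest value was a different one in each library: Snora28, Snora68 and Snora33 in Krt15+ replicates 1, 2 and 3, and Snora23, Snord55 and Snora7a in Krt15- replicates 1, 2 and 3.

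**Figure D2:**
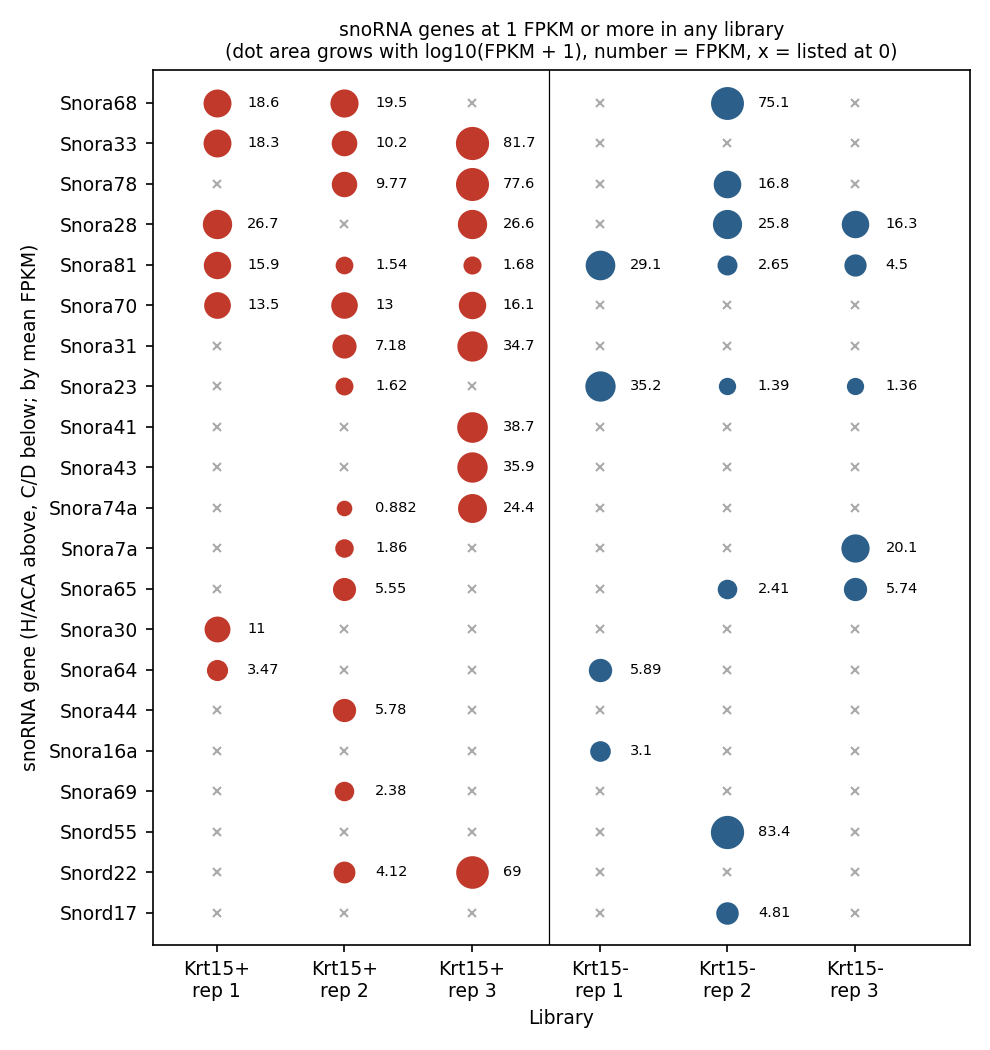
FPKM of the 21 snoRNA genes that reached 1 FPKM in any library (rows, box H/ACA above box C/D, each by mean) in the 3 Krt15+ libraries (left, red) and the 3 Krt15- libraries (right, blue). Dot area grows with log10(FPKM + 1), the number is the FPKM and a cross means listed at 0. Snora70 and Snora33 have dots in all 3 Krt15+ libraries and crosses in all 3 Krt15- libraries, and Snora81 is the only one with a dot in all 6.

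Snora70 had 13.5, 13.0 and 16.1 FPKM in Krt15+ libraries and was listed at 0 in all 3 Krt15- libraries. The Krt15+ values lie close together (mean log2(FPKM + 1) level 3.92 ± 0.15, SD, n = 3), and the groups do not overlap. Snora33 had 18.3, 10.2 and 81.7 FPKM in Krt15+ libraries and was listed at 0 in all 3 Krt15- libraries. Its Krt15+ values spread more widely (4.71 ± 1.49, SD, n = 3, on the same scale), with replicate 3 well above the others, and again the groups do not overlap. If the full annotated length was counted, these values equal at most about 50.8, 61.1 and 66.4 fragments for Snora70 and 64.9, 45.0 and 317 for Snora33 in Krt15+ libraries. No fold is given, since the Krt15- level is listed at 0.

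These 2 were the only snoRNA genes whose groups did not overlap upward, and 0 did so downward. They were chosen for this pattern, so nothing is read from that count. Over the 9423 genes whose mean reached 1 FPKM, 834 (8.85%) were higher in every Krt15+ library than in every Krt15- library and 230 (2.44%) were lower in every one. In the limma fit over those genes 0 (0%) passed an adjusted p of 0.05, with 300 higher and 70 lower at an unadjusted p under 0.05. That split was 117 higher and 112 lower with upper-quartile scaling and 168 higher and 149 lower without Krt15- replicate 1. With library weights 8 passed, all lower in Krt15+ cells. The median difference over those 9423 genes was 0.63 on the log2(FPKM + 1) scale, while over all 105 snoRNA genes, most of them at 0 in both groups, it was 0. Differences on this scale understate the change of low genes. Only 17 of the 105 snoRNA genes reached the mean of 1 FPKM (15 box H/ACA and 2 box C/D).

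Among the 21 snoRNA genes with 1 FPKM or more somewhere, 10 were listed only in Krt15+ libraries, 3 only in Krt15- libraries and 8 in both. The log2(FPKM + 1) mean was higher in Krt15+ cells for 13 and lower for 8. The 10 and the 13 both include Snora70 and Snora33, on which the set was selected. The same splits were not counted over all genes, whose median difference was itself above 0 (0.63), so nothing is read from them. Of those listed only in Krt15+ libraries, several were highest, or seen alone, in replicate 3. Snora31 had 0, 7.18 and 34.7 FPKM there, and the box C/D gene Snord22 had 0, 4.12 and 69.0 FPKM, both with 0 in all Krt15- libraries. Snora74a had 0, 0.882 and 24.4 FPKM in Krt15+ libraries and 0 in all Krt15- libraries. Snora41 (38.7 FPKM) and Snora43 (35.9 FPKM) had a value in Krt15+ replicate 3 alone. The groups share the value 0 in each of these 5, so they overlap.

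Of the snoRNA genes with a value in both Krt15+ replicates 3 and 2, replicate 3 was higher in every case. The factor was 1.10 for Snora81, 1.24 for Snora70, 4.83 for Snora31, 7.95 for Snora78, 8.02 for Snora33, 16.7 for Snord22 and 27.6 for Snora74a. That condition leaves out genes that went the other way. Snora68 (19.5 FPKM), Snora23, Snora44, Snora65, Snora69 and Snora7a had a value in replicate 2 but were listed at 0 in replicate 3. Snora28, Snora41 and Snora43 were the reverse. Replicate 2 in turn held the most snoRNA genes of any library, 12 at 1 FPKM or more, but 3 of these at 10 FPKM or more, against 9 of 10 in replicate 3. The 3 remaining genes listed only in Krt15+ libraries were seen once each: Snora30 at 10.97 FPKM in replicate 1, and Snora44 at 5.78 FPKM and Snora69 at 2.38 FPKM in replicate 2.

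Several snoRNA genes were as high in Krt15- cells. Snora81 had 15.9, 1.54 and 1.68 FPKM in Krt15+ libraries and 29.1, 2.65 and 4.50 FPKM in Krt15- libraries. In both groups replicate 1 was the high one, and the groups overlap (difference -0.80 on the log2 scale, 0.12 without Krt15- replicate 1). Snora23 had 0, 1.62 and 0 FPKM in Krt15+ libraries and 35.2, 1.39 and 1.36 FPKM in Krt15- libraries, a difference of -2.09 that rests mainly on Krt15- replicate 1. Snora28 had 26.7, 0 and 26.6 FPKM in Krt15+ libraries and 0, 25.8 and 16.3 FPKM in Krt15- libraries. It was thus seen in 4 libraries and listed at 0 in one library of each group (difference 0.24).

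Snora68 had 18.6, 19.5 and 0 FPKM in Krt15+ libraries and 0, 75.1 and 0 FPKM in Krt15- libraries. Snora78 had 0, 9.77 and 77.6 FPKM in Krt15+ libraries and 0, 16.8 and 0 FPKM in Krt15- libraries. Both overlap between the groups and were led by a single library, of Krt15- cells for Snora68 and of Krt15+ cells for Snora78. The highest value of any snoRNA was the 83.4 FPKM of the box C/D gene Snord55 in Krt15- replicate 2, with 0 in the other 5 libraries. Snord17 (4.81 FPKM in Krt15- replicate 2) and Snora16a (3.10 FPKM in Krt15- replicate 1) were likewise seen once. Snora7a had 0, 1.86 and 0 FPKM in Krt15+ libraries and 0, 0 and 20.1 FPKM in Krt15- libraries. Snora64 and Snora65 stayed under 6 FPKM in every library, with values in both groups.

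The hosts of the snoRNA genes were read from the annotation. Of the 105, 101 lie within another gene on the same strand, and 96 have a host with a value in the table, 70 host genes in all. Among 42 that overlap an exon of some host transcript, 14 were above 0. These were 13 of 17 box H/ACA and 1 of 25 box C/D genes. The 14 and the 13 include Snora24 and Snora26, whose values are far below the worth of a single fragment. Among 59 that lie in introns only, 8 were above 0 (6 of 17 box H/ACA and 2 of 42 box C/D), and these include neither Snora24 nor Snora26. For the protein-coding hosts of the snoRNAs named here, the exon mostly belongs to a transcript annotated as a retained intron, as for Snora70 in Rpl10, Snora33 in Rps12, Snora81 in Eif4a2 and Snora28 in Eif5. Snora7a overlaps an exon of a protein-coding transcript of Rpl32.

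Host levels were set beside snoRNA signal for each class. The hosts of box H/ACA genes above 0 had a median level of 338 FPKM (17 with a value), against 27.7 FPKM for those at 0 (15). The 17 include the hosts of Snora24 and Snora26. In the box C/D class the order was the other way, 28.6 FPKM for the 3 above 0 and 64.3 FPKM for 61 at 0. No test was made of either. At a host mean of 1000 FPKM or more, 7 box H/ACA and 1 box C/D gene were above 0, and 1 box H/ACA and 15 box C/D genes were at 0. The last include Snord68 in Rpl13 (4486 FPKM) and Snord32a, Snord33 and Snord34 in Rpl13a (1461 FPKM), a host whose snoRNAs are known from work on lipotoxic stress. The box H/ACA exception is Snora52 in Rplp2 (2659 FPKM).

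Within some hosts, snoRNA genes differed from each other. Of 19 hosts with 2 or more, 15 had all of them at 0 and 4 had some above 0 and some at 0, among them Eif4a2, Rps12 and the non-coding Snhg12. In Rps12, Snora33 had values up to 81.7 FPKM in Krt15+ libraries while Snord100 was at 0 everywhere. In Eif4a2, Snora81 was above 0 in all 6 libraries and Snord2 in none. In both hosts the snoRNA with signal is the box H/ACA one and the longer one.

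The hosts of Snora70 and Snora33 were abundant in both groups. Rpl10 had 900.7, 924.6 and 482 FPKM in Krt15+ libraries (769 ± 249, SD, n = 3) and 1223, 963 and 887 FPKM in Krt15- libraries (1024 ± 176, SD, n = 3). The ranges overlap, and limma gave a difference of -0.46 (SE 0.38, adjusted p = 0.79). Rps12 had 1084, 389 and 764 FPKM in Krt15+ libraries (746 ± 348, SD, n = 3) and 5157, 385 and 530 FPKM in Krt15- libraries (2024 ± 2714, SD, n = 3). Here Krt15- replicate 1 lay far above the rest, and the limma difference of -0.57 (SE 0.81, adjusted p = 0.85) turned to 0.60 without that library. As a share of host FPKM, Snora70 stood at 1.5%, 1.41% and 3.34% and Snora33 at 1.69%, 2.62% and 10.7% in Krt15+ libraries, both at 0 in Krt15- libraries. Hosts and snoRNAs share reads where they overlap, so these shares are not independent of each other.

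**Figure D3:**
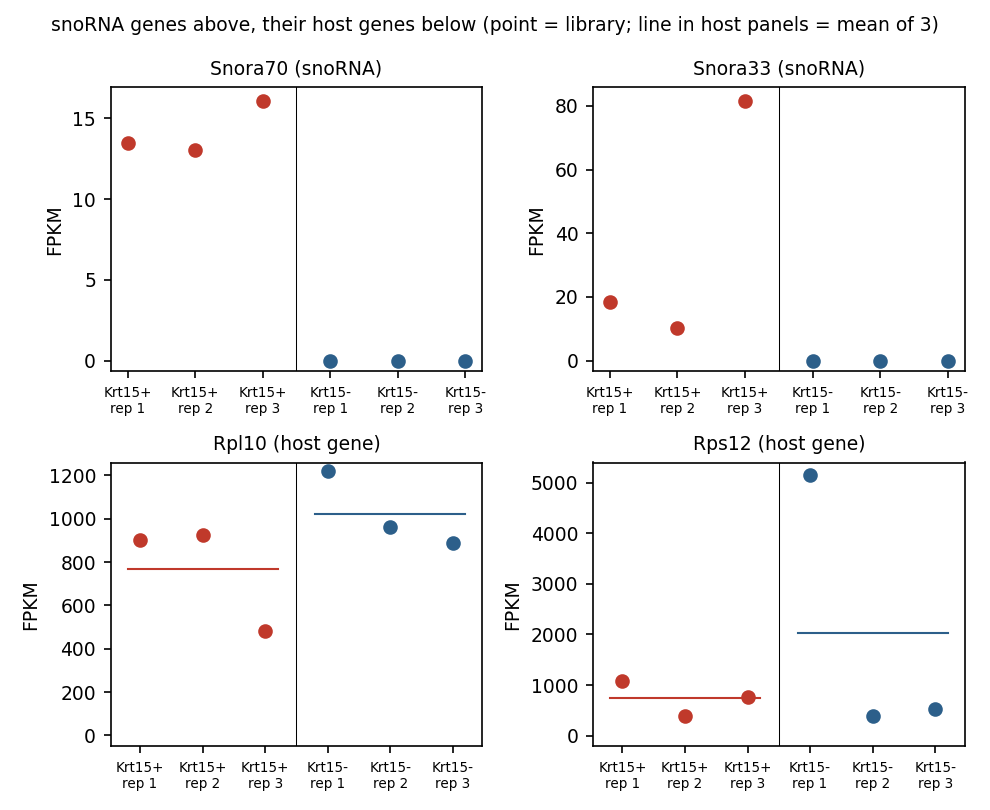
FPKM (y axis, linear) of Snora70 and Snora33 (upper panels) and of their hosts Rpl10 and Rps12 (lower panels) in each library, Krt15+ on the left in red and Krt15- on the right in blue, with the mean of 3 libraries as a line for the hosts. Both snoRNAs are at 0 in all Krt15- libraries, while Rpl10 (887 to 1223 FPKM) and Rps12 (385 to 5157 FPKM) were abundant there.

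Snora81 and Snora28 reached larger shares of their hosts' FPKM in some libraries, but not in all. Such a share is a ratio of FPKM values, each divided by its own length, and not a part of the host's level. Eif4a2 had 59.9, 35.5 and 56.2 FPKM in Krt15+ libraries and 27.9, 46.6 and 15.4 FPKM in Krt15- libraries (difference 0.83, SE 0.91, limma adjusted p = 0.82), and Snora81 stood at 26.5%, 4.33% and 2.99% of it in Krt15+ libraries and 104%, 5.68% and 29.2% in Krt15- libraries. The share thus varied more within a group than the host did. The initiation factor gene Eif5 had 82.1, 58.5 and 93.1 FPKM in Krt15+ libraries and 0.0179, 57.02 and 87.4 FPKM in Krt15- libraries (difference 2.16, SE 1.49, limma adjusted p = 0.79). In Krt15- replicate 1, where Eif5 was near 0, Snora28 was at 0 too, but Snora28 was also at 0 in Krt15+ replicate 2 with Eif5 at 58.5 FPKM. Snora23 lies in an intron of Ipo7, a nuclear import receptor gene, which had 0.30, 11.1 and 0 FPKM in Krt15+ libraries and 0, 0 and 0.00804 FPKM in Krt15- libraries. The 35.2 FPKM of Snora23 in Krt15- replicate 1 thus came with its host at 0.

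Over all 66 host genes that could be tested, 31 had a difference above 0 and 35 below 0, with a median of -0.05 against 0.63 over all genes. None passed the limma test (smallest adjusted p 0.79, 1 at an unadjusted p under 0.05, and 0 with any of the alternatives tried). The 19 tested hosts of snoRNA genes above 0, those of Snora24 and Snora26 included, split 10 to 9 (median 0.07). The 47 others split 21 to 26 (median -0.06). Groups did not overlap upward in 5 (7.58%, against 8.85% of all genes tested) and downward in 1 (1.52%, against 2.44%). These 6 were chosen for naming after their values were seen. Tsr1, a factor in small-subunit maturation, had 6.17, 20.6 and 15.5 FPKM in Krt15+ libraries and 0, 0 and 3.36 FPKM in Krt15- libraries. The others upward were the initiation factor gene Eif4g1, the elongation factor gene Eef2, the clathrin adaptor gene Ap1g1 and the non-coding gene 1810032O08Rik (Snhg16), and the one downward was the ribosomal protein gene Rpl32, host of Snora7a.

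Further hosts of named snoRNA genes gave differences of 0.13 (SE 0.58) for Tpt1, 0.07 (SE 0.93) for Snhg1, 0.55 (SE 1.44) for Snhg9, -0.53 (SE 0.81) for Eef1b2 and 1.32 (SE 1.00) for Ipo7. Their limma adjusted p-values ran from 0.79 to 0.99. Snhg1, the non-coding host of Snord22, had 36.7, 26.2 and 24.3 FPKM in Krt15+ libraries and 36.9, 28.8 and 18.7 FPKM in Krt15- libraries. It was thus at 24.3 FPKM in the library with Snord22 at 69.0 FPKM, and between 18.7 and 36.9 FPKM in the libraries with Snord22 at 0.

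RNA of the genes for the snoRNA particle core proteins was present in every library, including those with few snoRNA genes above 0. The proteins themselves were not measured. All 4 box C/D core genes and all 4 box H/ACA core genes were at 1 FPKM or more in all 6 libraries. None of the 8 passed the limma test (adjusted p 0.79 to 0.98). Among the box C/D core, Fbl, the methyltransferase fibrillarin, had 36.7, 103 and 123 FPKM in Krt15+ libraries and 3.8, 39.1 and 78.4 FPKM in Krt15- libraries (difference 1.66, SE 1.15). Nop56, a scaffold protein of the particle, had 58.1, 112 and 18.02 FPKM in Krt15+ libraries and 63.9, 108 and 153 FPKM in Krt15- libraries (difference -1.03, SE 0.89). The groups overlap for both. Its partner Nop58 differed by -0.12 (SE 0.87), and Nhp2l1, which binds the kink-turn of the RNA, by 0.24 (SE 0.68).

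In the box H/ACA core all 4 genes had a difference below 0, with a median of -0.52, and each overlapped between the groups. Dkc1, the pseudouridine synthase dyskerin, had 30.0, 30.1 and 18.3 FPKM in Krt15+ libraries and 42.0, 52.6 and 25.8 FPKM in Krt15- libraries (difference -0.58, SE 0.92). Gar1, which helps position the substrate RNA, had 37.6, 84.5 and 15.2 FPKM in Krt15+ libraries and 40.1, 158.6 and 51.1 FPKM in Krt15- libraries (difference -0.89, SE 0.97). Nhp2 (-0.27, SE 0.46) and Nop10 (-0.46, SE 0.42), which encode the small proteins of the particle, had the highest RNA levels of the 4. The summed level of the 4 was 993 to 1189 FPKM in Krt15+ libraries and 1247 to 1732 FPKM in Krt15- libraries. These sums do not overlap and are made up mostly of Nhp2 and Nop10. None of the 4 genes changed direction under any of the alternatives tried. Within each replicate number, every one of the 4 was lower in the Krt15+ library than in the Krt15- library, as were 6.34% of all genes tested, and with the number as a block their limma adjusted p-values ran from 0.75 to 0.86. Fbl was higher in the Krt15+ library within all 3 numbers, as were 20.9% of all genes tested (limma adjusted p = 0.74 with the block).

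**Figure D4:**
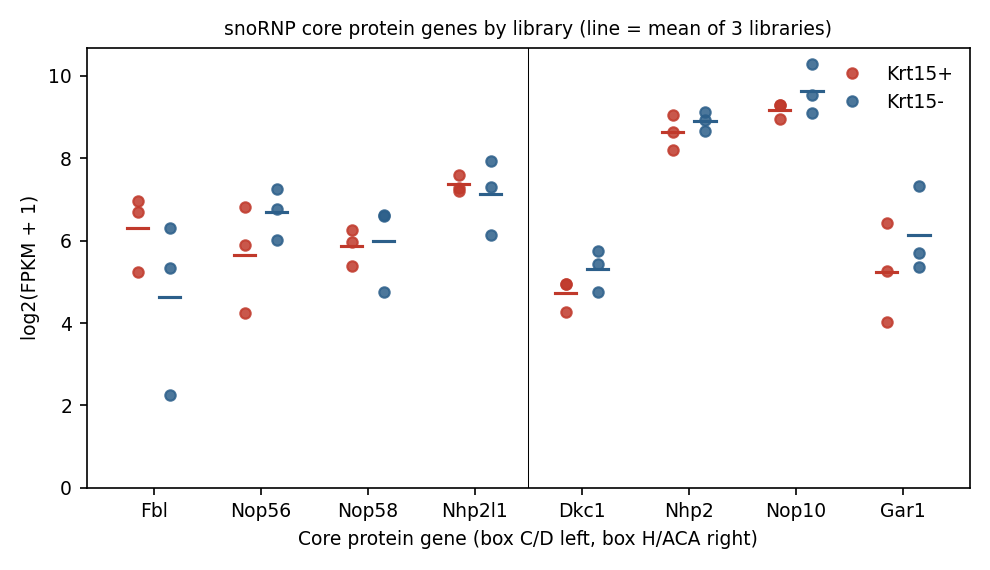
Level of the 8 snoRNA particle core protein genes, as log2(FPKM + 1) (y axis), in each library (points), Krt15+ in red to the left of Krt15- in blue for each gene, with the mean of 3 libraries as a line. Box C/D genes are left of the vertical line and box H/ACA genes right of it. The groups overlap for every gene, and the 4 box H/ACA means are lower in Krt15+ cells.

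The wider pathway likewise held no call. Of 11 tested snoRNA particle assembly and Cajal body genes, 10 had a difference above 0 and 1 below 0 (median 0.48, against 0.63 over all genes). Pih1d1, a subunit of the R2TP assembly complex, had 73.1, 106 and 77.9 FPKM in Krt15+ libraries and 9.93, 56.8 and 111 FPKM in Krt15- libraries (difference 1.05, SE 0.98, limma adjusted p = 0.79). Its AAA+ ATPase partners Ruvbl1 (difference 1.19, SE 1.59) and Ruvbl2 (1.39, SE 1.59) were at or near 0 in Krt15- replicate 1. Coil, the marker protein of Cajal bodies, was under 1 FPKM in every library.

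Of 20 ribosome biogenesis factors, 12 had a difference above 0 and 8 below 0 (median 0.44, against 0.63 over all genes), and none passed. Npm1, the nucleolar chaperone nucleophosmin, had 295, 235 and 249.7 FPKM in Krt15+ libraries and 673, 189 and 293 FPKM in Krt15- libraries (difference -0.37, SE 0.59, limma adjusted p = 0.87). Emg1, which methylates a pseudouridine of small-subunit ribosomal RNA, had 189.9, 152 and 83.8 FPKM in Krt15+ libraries and 318, 191 and 196 FPKM in Krt15- libraries. Every Krt15+ library was below every Krt15- one, by little for the nearest pair, and Emg1 did not pass (difference -0.76, SE 0.63, limma adjusted p = 0.79). Imp3, a protein of the U3 snoRNA particle, differed by 0.06 (SE 0.96).

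Of 16 tested non-coding snoRNA host genes, 13 had a difference above 0 and 3 below 0 (median 0.81, against 0.63 over all genes), and none passed. Of all 19 such genes with values, 5 reached 1 FPKM in Krt15- replicate 1, against 14 to 16 in the other libraries. Gas5, host to a cluster of box C/D snoRNAs, had 75.4, 43.6 and 138 FPKM in Krt15+ libraries and 50.3, 32.9 and 44.9 FPKM in Krt15- libraries (difference 0.86, SE 0.84, limma adjusted p = 0.80). Gm11974 (Snhg15) had 147, 77.3 and 68.2 FPKM in Krt15+ libraries and 0, 43.5 and 140 FPKM in Krt15- libraries (difference 2.33, SE 1.54). Snhg3 was lower in Krt15+ cells on average, with 0.116, 18.03 and 93.1 FPKM in Krt15+ libraries and 57.5, 40.5 and 71.2 FPKM in Krt15- libraries (difference -2.15, SE 1.44, limma adjusted p = 0.79). The groups overlap for all 3. The 2 tested genes among other small structural RNAs, Rnu11 and Vaultrc5, were both above 0 in difference (1.70, SE 1.5, and 1.07, SE 1.02).

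Beside these, 6 of 8 tested fibroblast markers did not overlap and were lower in Krt15+ cells (median difference -3.60, smallest limma adjusted p 0.58). Mfap5, a protein of elastic microfibrils, had 0, 0 and 0.0744 FPKM in Krt15+ libraries and 38.8, 49.3 and 103 FPKM in Krt15- libraries. Vim, the mesenchymal intermediate filament vimentin, had 0, 3.51 and 0.0744 FPKM in Krt15+ libraries and 72.5, 43.2 and 35.5 FPKM in Krt15- libraries. The small proteoglycan gene Dcn overlapped, with 167, 176 and 71.1 FPKM in Krt15+ libraries and 13.9, 267 and 457 FPKM in Krt15- libraries. Of 7 tested immune markers, 5 had a difference below 0 and 2, Lyz2 and H2-Ab1, above 0 (median -1.75, smallest limma adjusted p 0.79). Tyrobp, an adaptor of myeloid and natural killer cells named after its values were seen, did not overlap, with 0, 20.2 and 27.6 FPKM in Krt15+ libraries and 203, 124 and 31.0 FPKM in Krt15- libraries (difference -3.46, SE 1.37, limma adjusted p = 0.79). Fcer1g (-2.85), Laptm5 (-1.75) and Cd74 (-1.72) also had differences below 0. Lyz2 (lysozyme) reached 7279 FPKM in Krt15+ replicate 1 and lay between 0 and 339 FPKM elsewhere, Nkg7, a granule protein gene of cytotoxic lymphocytes, was at 459 FPKM in Krt15- replicate 2 and under 0.1 FPKM elsewhere, and the antigen presentation gene H2-Ab1 was at 0 in Krt15- replicate 1 and between 35.9 and 222 FPKM in the others. Krt15- replicate 2 is also the library with the only Snord55 and Snord17 values. Whether these cells bear on the snoRNA values was not tested.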

How the data were processed

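The series holds 6 libraries, 3 of Krt15+ and 3 of Krt15- cells. The values are FPKM per gene, as the authors deposited them, although the table is titled as counts (its values are not whole). Per the submitters' processing notes, the mm9 build and the tools Cufflinks 2.2.1, STAR 2.5 and DESeq2 were used, with neither role nor order stated. Annotation, filtering of reads and strandedness were not given in the sources used here. FPKM divides by transcript length, which inflates short genes, and lets reads be split between overlapping genes. The table has no coordinates; those printed come from GENCODE M21 (GRCm38), which differs from mm9 and matched 104 of the 105 snoRNA genes (not Snord116).

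Of 24043 table entries, 27 with symbols turned into dates were left out. The 9423 genes whose mean reached 1 FPKM were fitted as log2(FPKM + 1) with limma 3.58.1 (limma-trend, R 4.3.3), with group as the only term, Benjamini-Hochberg adjustment and calls below 0.05. The fit was tested on simulated data. Their spread was set smaller than that of most genes named here, so the power of the fit in these libraries was not measured. The written design named this fit for FPKM and a count model for counts. Depth was estimated from the single-fragment step of 2172 long genes with 1 transcript and is approximate, so no counting interval is given. Hosts are genes that enclose a snoRNA gene on the same strand. Copies were searched with blastn 2.17.0.

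The snoRNA genes, gene lists and tests were chosen with earlier results of these data known. Named are Snora70 and Snora33, the 8 others of highest mean, the 8 others of largest difference, any at 1 FPKM in all libraries, their hosts, all core protein genes and the 3 highest genes of each other list; the further snoRNA genes with signal are named for completeness. Some host genes and sequences are not reported here. Alternatives covered the pseudocount, the filter, 3 scalings, library weights, a replicate block and leaving out each library.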

Additional observations from a re-analysis of the deposited data

How the results depend on the processing

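Snora70 and Snora33, listed at 0 in all Krt15- libraries and above 0 in all Krt15+ ones, could not overlap under any of the 15 alternatives, so this says nothing of their stability. Their differences moved with the pseudocount, to 7.15 and 7.96 at 0.1 and to 1.94 and 2.65 at 5, and for Snora70 with scaling, to 3.16 (upper quartile), 3.55 (median of ratios) and 3.73 (quantile). Without Krt15+ replicate 1, 5 snoRNA genes were higher without overlap (adding Snora31, Snora74a and Snord22) and 1 was lower (Snora81). Over the 9423 genes tested, 1510 were higher and 367 lower in that setting, against 834 and 230 with all libraries. The rise was thus not particular to snoRNA genes. Over the libraries left out in turn, the snoRNA counts ran from 2 to 5 higher and 0 to 1 lower. Median-of-ratios and quantile scaling each gave 1 lower (Snora23), with 321 and 286 lower over the genes tested. A filter of 1 FPKM in 3 libraries kept 8 snoRNA genes instead of 17. At 10 FPKM instead of 1, the numbers became 6, 3 and 9 in Krt15+ replicates 1, 2 and 3 and 2, 4 and 2 in Krt15- replicates 1, 2 and 3.

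No gene passed the limma test except with library weights, where 8 did, all lower in Krt15+ cells: Col3a1, Dpt, Fxyd1, Igfbp6, Mfap5, Mgp, Rarres2 and Serpinf1. The 370 genes at an unadjusted p under 0.05 became 572 with no filter, 229 with upper-quartile scaling and 843 with weights, and 248 to 718 with a library left out. Genes without overlap, 834 higher and 230 lower, became 628 and 349 with upper-quartile scaling and 1017 and 843 without Krt15- replicate 1. Over all genes the median of 0.63 became 0.05 with upper-quartile scaling, 0.40 with median of ratios, 0.17 with quantile scaling and 0.02 without Krt15- replicate 1; 17 of 66 hosts instead of 31 were above 0 with upper-quartile scaling. Both libraries of a replicate number share a sample code in the labels, but what it marks is not stated, and the correlations of their deviations from the group means were 0.13, 0.17 and 0.0089 for numbers 1, 2 and 3, so whether the numbers pair the libraries was not settled. The replicate block gave 0 calls, with 337 higher and 142 lower at an unadjusted p under 0.05, and changed no call.

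Among hosts and core genes, none of them called, 8 of 17 changed direction somewhere. With upper-quartile scaling these were Eif4a2 (-0.83), Snhg1 (-1.58), Tpt1 (-1.55) and Nhp2l1 (-1.42), with median of ratios Snhg1 (-0.41), Tpt1 (-0.36) and Nhp2l1 (-0.25), with quantile scaling Snhg1 (-0.079), and with weights Eef1b2 (0.27) and Rps12 (0.28). With a library left out the differences ran from -1.11 to 0.51 for Eef1b2 and -1.27 to 0.60 for Rps12 (both above 0 without Krt15- replicate 1), -0.68 to 1.62 for Snhg9, -0.18 to 0.29 for Snhg1, -0.27 to 0.85 for Tpt1, -0.74 to 0.20 for Nop58 and -0.25 to 0.64 for Nhp2l1. The causes were not tested. Of 11 further named snoRNA genes, 3 changed direction: Snora28 (-1.24 to 1.84 with a library left out), Snora68 (-0.24 to 2.88) and Snora81 (-1.70 to 0.12). Snora23 and Snora78, also with values in both groups, did not. Snora31, Snora41, Snora43, Snora74a, Snord22 and Snord55 were listed at 0 throughout one group. Their direction could not change under any alternative, so nothing is read from it. Depth is unknown beyond an estimate, so a listed 0 cannot be given a limit.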
